A study of Mus musculus with 8 samples.

Results

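The genes of bone morphogenetic protein (BMP) signalling described here are 4 ligands (Bmp2, Bmp4, Bmp5 and Bmp7), 3 Id target genes (Id1, Id2 and Id3) and 2 Msx target genes (Msx1 and Msx2). They were taken as a named list, and all 9 were found among the 27998 gene rows of the count tables. The study asked how loss of the TET proteins, which oxidise 5-methylcytosine in DNA, alters the path of mouse embryonic stem cells toward cardiac progenitors. Single-cell RNA libraries of day 5 were compared, 1 labelled Tet-triple knockout (TKO) with no treatment and 1 labelled wild type (WT) with no treatment. Both came from cells grown on mitomycin C-treated embryonic fibroblast feeders, of an E14 line with an Nkx2-5 fluorescent reporter, and were then made into embryoid bodies in hanging drops once leukemia inhibitory factor was withdrawn. How the 3 Tet genes were deleted, and how many clones were used, is not given in the sources used here. The other 6 of the 8 samples, 5-hydroxymethylcytosine pull-downs of WT cells, were not analysed here.

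BMPs are secreted dimers that bind type I and type II receptor kinases, which phosphorylate the signal-carrying Smads (Smad1, Smad5 and Smad9), and these enter the nucleus with Smad4. Id genes, which encode dominant-negative partners of basic helix-loop-helix factors, and Msx genes, which encode homeodomain repressors, are textbook transcriptional targets. In the gastrulating mouse embryo the pathway is known for its part in forming posterior and lateral mesoderm and in the induction of heart progenitors next to the endoderm.

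The TKO-labelled library held 3196 kept cells with 33483998 unique molecular identifiers (UMIs), and the WT-labelled library held 4389 cells with 37503810 UMIs. The median cell had 9678 UMIs in the TKO-labelled and 7847 in the WT-labelled library. Transcripts of the targeted genes remained in the TKO-labelled library. Tet1 stood at 22.8 UMIs per 1000000 of the library (CPM) there and at 12.3 in the WT-labelled library. Tet2 had 4.60 CPM in the TKO-labelled and 6.83 in the WT-labelled library, and Tet3 had 20.3 in the TKO-labelled and 29.1 in the WT-labelled library. These UMIs need not come from the deleted part, so the label was not tested, and the libraries are named by their labels throughout. The headers shared 21 barcode sequences. The doublet caller marked 0.0313% of TKO-labelled and 0.0683% of WT-labelled cells, which is too few for it to have worked, so doublets remain. Cells were sorted into 13 kinds by marker genes. A cell passed a gate with UMIs of at least 4 of the kind's 10 markers, and none of the 9 genes is a marker. In all, 12 pools of at least 50 cells resulted, 6 per library, and 1384 TKO-labelled and 1060 WT-labelled cells stayed unassigned. Each pool had at least 3 of its own markers among its 10 leading genes. Cells were gated on those same markers, so this is no independent check of the kinds. With 1 library per group there is no replicate check and no test. The 95% intervals after each value cover counting error only.

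Over all cells the Id and Msx targets differed between the libraries in opposite directions. Id1 and Id3 were more than 2-fold higher in the TKO-labelled library, while Msx1 and Msx2 were more than 2-fold lower. Among the ligands, Bmp7 was higher and Bmp4 lower. Thus 3 of the 9 genes were at least 2-fold higher, against 13.5% of the 15344 genes with at least 10 UMIs, and 3 were at least 2-fold lower, against 12.3%. The median log2 ratio was -0.06 over the 9 genes and 0.14 over all those genes. The list is short, and its members were chosen with earlier results of these data known.

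**Figure D1:**
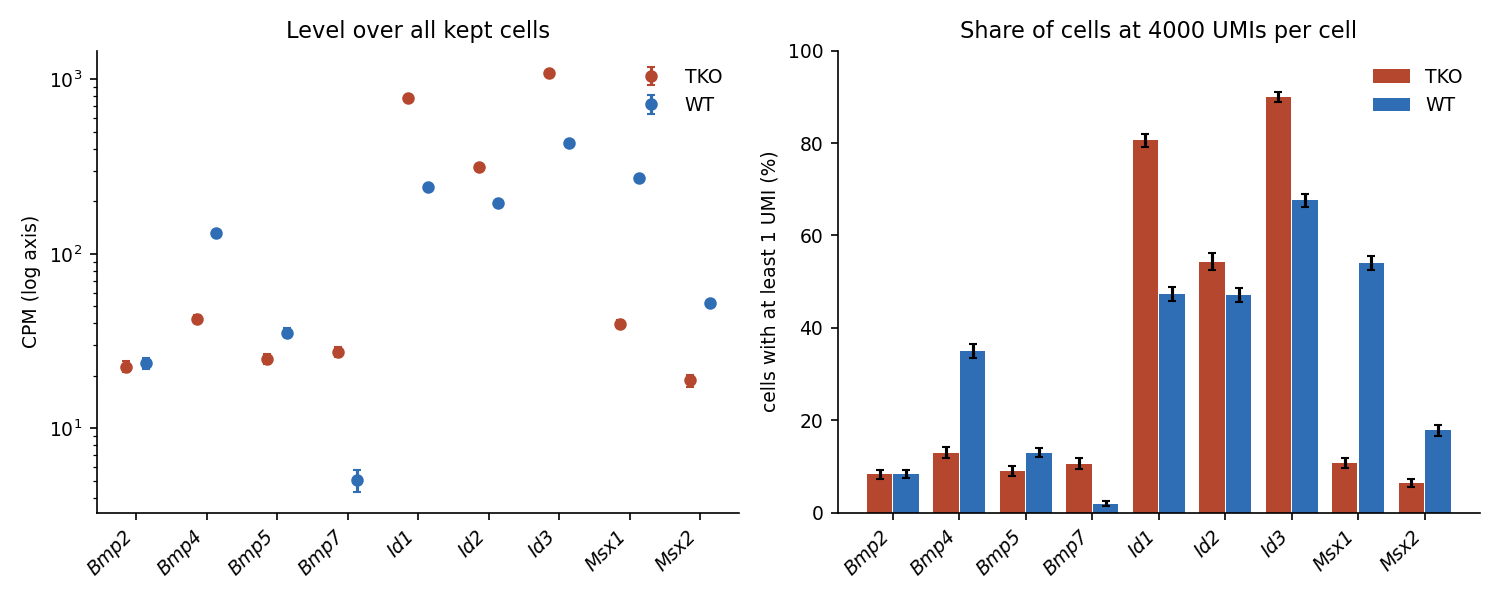
Left, CPM of each gene over all kept cells on a log axis, with exact Poisson 95% intervals. Right, the percentage of cells with at least 1 UMI after every cell was thinned to 4000 UMIs, with exact binomial 95% intervals. Red marks the TKO-labelled and blue the WT-labelled library, 1 library each; Id1, Id2, Id3 and Bmp7 are higher and Bmp4, Bmp5, Msx1 and Msx2 lower in the TKO-labelled library in both panels.

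Bmp4 (chr14:46383525-46390669 in GRCm38.p6) encodes the ligand that the early mouse embryo needs to form mesoderm. Its level was 42.4 CPM (40.2 to 44.7) in the TKO-labelled library and 132 CPM (129 to 136) in the WT-labelled library, a ratio of 0.321 (0.302 to 0.340). At 4000 UMIs per cell, 13.0% of TKO-labelled cells (11.8 to 14.2) and 35.0% of WT-labelled cells (33.5 to 36.5) had a Bmp4 UMI. Without thinning the shares were 23.2% of TKO-labelled and 51.3% of WT-labelled cells. Erythroid-gated WT-labelled cells, red cell precursors in which Bmp4 is not known to be made, served as background, and 5.10% of them had a UMI at 4000 UMIs. This background is that of the WT-labelled library, since 19 TKO-labelled cells passed the gate, too few for one. Their median depth before thinning was 10125 UMIs, above that of either library.

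Bmp4 was highest in the mesodermal pools of the WT-labelled library. The level was 204 CPM in mesothelium-gated, 182 in lateral mesoderm-gated and 161 in matrix-rich mesenchyme-gated WT-labelled cells, all above the 6 TKO-labelled pools. The intervals of matrix-rich mesenchyme, 154.97 to 167.54, and of TKO-labelled lateral mesoderm, 118.92 to 155.22, overlapped slightly. The highest TKO-labelled pool was lateral mesoderm at 136 CPM, followed by cardiomyocytes at 84.1 and cardiac progenitors at 38.9. Head mesenchyme at 21.7, epiblast at 8.08 and definitive endoderm at 6.64 CPM were the lowest TKO-labelled pools, beside an erythroid level in the WT-labelled library of 21.6. The matrix-rich mesenchyme gate alone held 2552 of the 4959 Bmp4 UMIs of the WT-labelled library, in 1863 cells. Only 3 TKO-labelled cells passed that gate. Of the 1420 Bmp4 UMIs of the TKO-labelled library, unassigned cells held 836, at 68.7 CPM, and lateral mesoderm-gated cells 224.

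Lateral mesoderm and definitive endoderm were the only kinds with at least 50 cells in both libraries. In lateral mesoderm-gated cells Bmp4 averaged 136 CPM (119 to 155) in 142 TKO-labelled cells and 182 CPM (169 to 195) in 477 WT-labelled cells. The ratio there was 0.749 (0.643 to 0.870), nearer to 1 than over all cells. In definitive endoderm-gated cells the ratio was 0.363 (0.205 to 0.685), on 67 TKO-labelled and 15 WT-labelled UMIs. The WT-labelled level lay below that of erythroid-gated cells of the same library. In epiblast-gated cells, 26 of them WT-labelled, the Bmp4 ratio was 0.211 (0.0988 to 0.488). In cardiomyocyte-gated cells, 19 of them WT-labelled, it was 0.459 (0.299 to 0.729). Unassigned cells had a Bmp4 ratio of 0.4635 (0.424 to 0.507). The endothelial ratio, 0.137 (0.0033 to 0.873), rested on 1 TKO-labelled UMI, and the erythroid interval, 0.15 to 2.24, spanned 1.

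Bmp7 (chr2:172868012-172940321), a ligand with known roles in kidney and eye development, was on the other side of 1 over all cells. It stood at 27.4 CPM (25.6 to 29.2) in the TKO-labelled library and 5.04 CPM (4.35 to 5.81) in the WT-labelled library, a ratio of 5.43 (4.64 to 6.38). A UMI was seen in 10.6% of thinned TKO-labelled cells (9.50 to 11.7) and in 1.92% of thinned WT-labelled cells (1.52 to 2.39). Unthinned, the shares were 22.4% of TKO-labelled and 3.53% of WT-labelled cells. None of 471 thinned erythroid-gated WT-labelled cells had one, which allows a share of up to 0.780%.

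Cardiac progenitor-gated and definitive endoderm-gated TKO-labelled cells had the highest Bmp7 levels, 39.4 and 39.1 CPM, with head mesenchyme at 31.1, and these 3 pools overlapped in their intervals. Definitive endoderm at 19.5 CPM was the highest pool of the WT-labelled library, and the other 5 WT-labelled pools lay between 0.389 and 8.60, below every TKO-labelled pool. The intervals of WT-labelled lateral mesoderm (6.05 to 11.9) and mesothelium (1.01 to 9.53) overlapped that of TKO-labelled epiblast at 10.5 CPM (7.30 to 14.6). The definitive endoderm gate held 394 of the 916 Bmp7 UMIs of the TKO-labelled library. In that gate the level was 39.1 CPM (35.3 to 43.1) in 868 TKO-labelled cells and 19.5 CPM (11.1 to 31.7) in 94 WT-labelled cells, a ratio of 2.00 (1.22 to 3.54). In lateral mesoderm-gated cells Bmp7 had 12.8 CPM in TKO-labelled and 8.60 in WT-labelled cells, with an interval of the ratio, 0.826 to 2.60, that spans 1. The 2.00 in definitive endoderm lay at the 2-fold line and was 1.74 to 1.81 under the 4 other ways of drawing that gate. Cardiomyocyte-gated cells, with only 19 in the WT-labelled library, went the other way, with 18.1 CPM in TKO-labelled and 70.5 in WT-labelled cells and a ratio of 0.257 (0.121 to 0.593). Unassigned cells had a ratio of 2.90 (2.23 to 3.82).

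Bmp2 (chr2:133552159-133562896), a ligand that promotes heart formation, differed over all cells by less than the counting error. It stood at 22.6 CPM (21.0 to 24.2) in the TKO-labelled library and 23.5 CPM (22.0 to 25.2) in the WT-labelled library, a ratio of 0.959 (0.869 to 1.06). That depended on the processing, as the ratio was 0.8685 without erythroid-gated cells and 0.872 under median-of-ratios scaling. The shares of thinned cells with a UMI were 8.25% in the TKO-labelled library and 8.34% in the WT-labelled library, and unthinned they were 16.2% in the TKO-labelled and 15.6% in the WT-labelled library. Erythroid-gated WT-labelled cells had a share of 2.34%. The pools were less alike than the totals. Cardiomyocyte-gated TKO-labelled cells had the highest Bmp2 level, 45.3 CPM, and epiblast-gated TKO-labelled cells the lowest, 1.497. Inside the definitive endoderm gate Bmp2 was lower, with 17.5 CPM in TKO-labelled and 30.5 in WT-labelled cells and a ratio of 0.576 (0.378 to 0.914). In the lateral mesoderm gate the ratio was 0.878 (0.622 to 1.22). Endothelial-gated cells were far on the other side, with 41.2 CPM in 38 TKO-labelled cells and 5.65 in 147 WT-labelled cells, a ratio of 7.31 (3.01 to 20.3) on 22 TKO-labelled and 7 WT-labelled UMIs.

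Bmp5 (chr9:75775365-75900316), a close relative of Bmp7, followed the mesodermal pools of both libraries. It stood at 25.0 CPM (23.4 to 26.8) in the TKO-labelled library and 35.4 CPM (33.5 to 37.4) in the WT-labelled library, a ratio of 0.707 (0.647 to 0.771). Thinned cells with a UMI made up 8.98% of the TKO-labelled and 13.0% of the WT-labelled library, against 1.70% of erythroid-gated WT-labelled cells. The unthinned shares were 18.6% of TKO-labelled and 23.7% of WT-labelled cells. Cardiomyocyte-gated TKO-labelled cells at 57.6 CPM led the order, and their interval overlapped that of lateral mesoderm, which had 51.1 CPM in TKO-labelled and 51.6 in WT-labelled cells. The ratio within lateral mesoderm was 0.990 (0.761 to 1.28). Definitive endoderm-gated cells had 4.86 CPM in the TKO-labelled library and 3.65 in the WT-labelled library, the WT-labelled value resting on 3 UMIs.

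At 4000 UMIs per cell, 66.8% of TKO-labelled cells (65.1 to 68.5) and 53.5% of WT-labelled cells (51.9 to 55.0) had no UMI of any of the 4 ligands. At least 2 ligands were seen together in 6.85% of TKO-labelled cells (5.98 to 7.82) and 10.7% of WT-labelled cells (9.74 to 11.7). Bmp4 with Bmp5 was found in 2.76% of TKO-labelled and 6.35% of WT-labelled cells. Bmp4 with Bmp7 was found in 1.33% of TKO-labelled and 0.622% of WT-labelled cells.

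**Figure D2:**
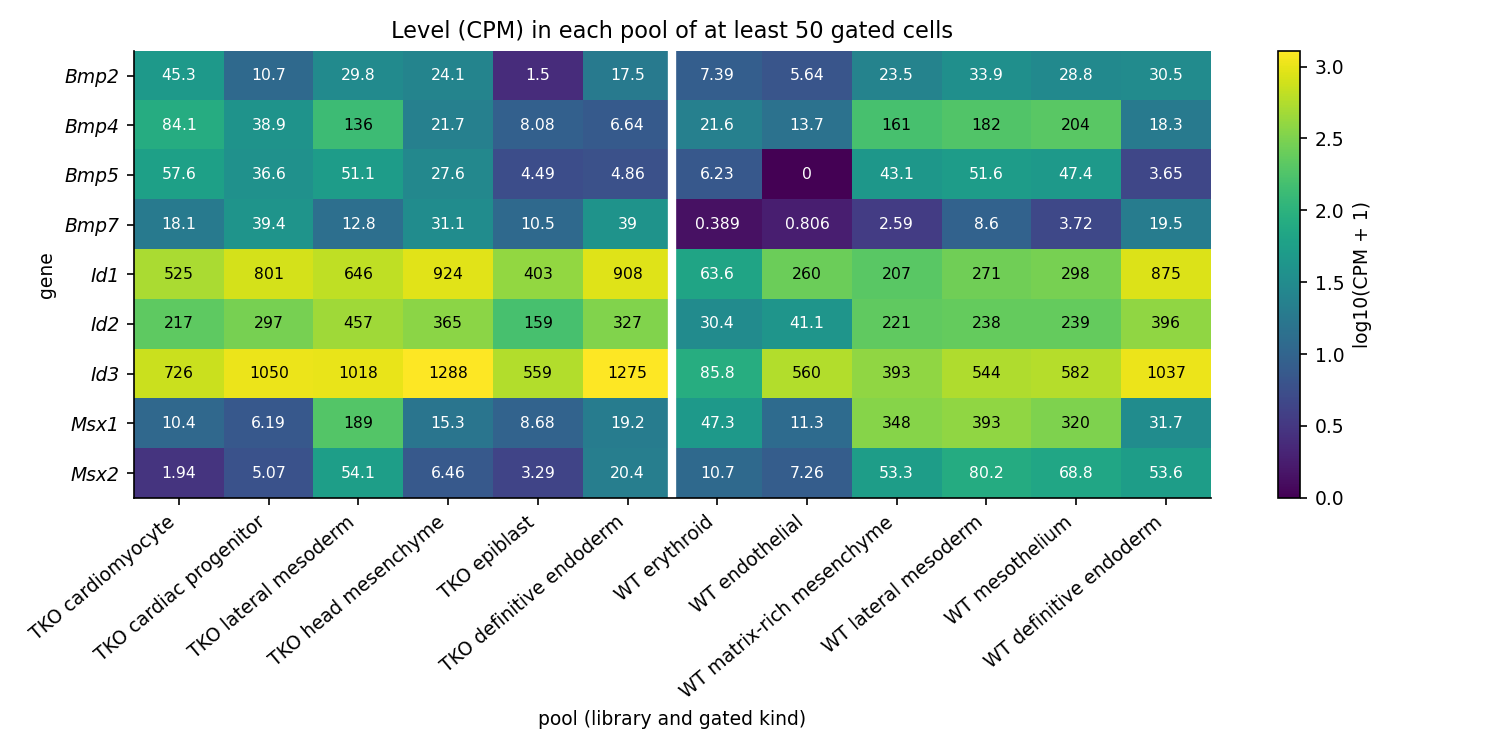
Level of each gene, in CPM, in the 12 pools of at least 50 gated cells, coloured by log10(CPM + 1). The 6 TKO-labelled pools stand left of the white line and the 6 WT-labelled pools right of it; Bmp4 and Msx1 are high in the WT-labelled mesodermal pools and in TKO-labelled lateral mesoderm, and Id1 is high in every TKO-labelled pool and in WT-labelled definitive endoderm.

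The 3 Id genes each had a ratio above 1 over all cells, and 2 of them, Id1 and Id3, were past 2-fold. The 250 bases before the transcription start of Id2 (chr12:25096093-25096342, minus strand) and Id3 (chr4:136143572-136143821, plus strand) are shown as the Id genes with an entry in the table used, since Id genes are the textbook targets that Smads bind. The sequences are from RefSeq, build GRCm38.p6, and 6 of the 9 genes had an entry. Capitals mark GGCGCC and GGAGCC, forms bound by the BMP-activated Smads, and CAGAC, the core of the Smad box, each on either strand.
Id2: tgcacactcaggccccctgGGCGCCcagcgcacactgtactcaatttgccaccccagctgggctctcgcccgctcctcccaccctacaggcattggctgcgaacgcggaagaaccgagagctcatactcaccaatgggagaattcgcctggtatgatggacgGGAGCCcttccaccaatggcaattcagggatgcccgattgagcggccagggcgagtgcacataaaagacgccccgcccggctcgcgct
Id3: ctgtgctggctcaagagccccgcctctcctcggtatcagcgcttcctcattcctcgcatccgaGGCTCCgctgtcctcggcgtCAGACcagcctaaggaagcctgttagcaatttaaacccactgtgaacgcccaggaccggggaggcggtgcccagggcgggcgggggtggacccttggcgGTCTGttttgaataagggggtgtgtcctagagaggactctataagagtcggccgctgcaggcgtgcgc
Id2 holds GGCGCC once and GGAGCC once, and Id3 holds GGAGCC once and CAGAC 2 times, with no overlap between the marked runs. Of 32841 promoter windows of the same length, 9.59% hold GGCGCC, 26.0% GGAGCC and 42.2% CAGAC. Both windows hold 18 CpG dinucleotides, and the median window holds 6. The windows of the ligand genes Bmp4, with GGAGCC once, and Bmp5, with CAGAC once, are not printed. A match of letters is a description and not a binding site.

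Id1 (chr2:152736251-152737410), which keeps progenitors from differentiating, had 777 CPM (768 to 787) in the TKO-labelled library and 241 CPM (236 to 246) in the WT-labelled library. The ratio was 3.23 (3.15 to 3.31). A UMI was found in 80.7% of thinned TKO-labelled cells (79.2 to 82.1) and 47.3% of thinned WT-labelled cells (45.7 to 48.8), beside 15.5% of erythroid-gated WT-labelled cells. Without thinning the shares were 90.7% of TKO-labelled and 62.0% of WT-labelled cells. The median thinned cell had 2 Id1 UMIs in the TKO-labelled library and 0 in the WT-labelled library.

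Within kinds, Id1 was higher in the TKO-labelled library in lateral mesoderm and differed by less than the counting error in definitive endoderm. The 6 TKO-labelled pools lay between 403 and 924 CPM, while 5 of the 6 WT-labelled pools lay between 63.6 and 298, below all of them. Definitive endoderm at 875 CPM was the exception among the WT-labelled pools. Within the definitive endoderm gate Id1 had 908 CPM (890 to 927) in TKO-labelled and 875 CPM (812 to 941) in WT-labelled cells, a ratio of 1.04 (0.962 to 1.12). Within the lateral mesoderm gate it had 646 CPM (608 to 686) in TKO-labelled and 271 CPM (256 to 287) in WT-labelled cells, a ratio of 2.38 (2.19 to 2.59).

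Endothelial, epiblast, cardiomyocyte and unassigned cells, looked at after these values were seen, were on the same side as lateral mesoderm for Id1. Endothelial-gated cells had 733 CPM of Id1 in 38 TKO-labelled cells and 260 in 147 WT-labelled cells, a ratio of 2.81 (2.42 to 3.27). The ratio was 2.56 (1.88 to 3.59) in epiblast-gated cells, with 26 cells in the WT-labelled library, and 1.91 (1.39 to 2.71) in cardiomyocyte-gated cells, with 19. Unassigned cells had 808 CPM in the TKO-labelled and 296 in the WT-labelled library, a ratio of 2.73 (2.61 to 2.85). Erythroid-gated cells had low Id1 in both libraries, 80.6 CPM in 19 TKO-labelled cells and 63.6 in 521 WT-labelled cells. Visceral endoderm-gated cells, 48 in the WT-labelled library, had 809 CPM, close to definitive endoderm, while only 2 TKO-labelled cells passed that gate.

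Id3 (chr4:136143822-136145392), which is known to act redundantly with Id1 in vessel formation, ran beside Id1. It had 1094 CPM (1083 to 1105) in the TKO-labelled library and 431 CPM (424 to 438) in the WT-labelled library, a ratio of 2.54 (2.49 to 2.59). A UMI was found in 90.1% of thinned TKO-labelled cells and 67.6% of thinned WT-labelled cells, and unthinned in 96.1% of TKO-labelled and 79.2% of WT-labelled cells. Erythroid-gated WT-labelled cells had a share of 17.2%. The TKO-labelled pools spanned 559 to 1288 CPM and the WT-labelled pools 85.8 to 1037. The ratio was 1.87 (1.76 to 1.99) within lateral mesoderm and 1.23 (1.15 to 1.32) within definitive endoderm, and it lay between 1.53 and 2.12 in endothelial, epiblast, cardiomyocyte and unassigned cells.

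Id2 (chr12:25093799-25096092), known also from lymphoid development, had the smallest ratio of the 3 Id genes. Its level was 314 CPM (308 to 320) in the TKO-labelled library and 197 CPM (192 to 201) in the WT-labelled library, a ratio of 1.60 (1.55 to 1.64). The thinned shares were 54.3% of TKO-labelled and 47.1% of WT-labelled cells, and unthinned 72.9% of TKO-labelled and 61.9% of WT-labelled cells, beside 8.07% of erythroid-gated WT-labelled cells. Lateral mesoderm-gated TKO-labelled cells led the order with 457 CPM, against 238 in WT-labelled lateral mesoderm, a ratio of 1.92 (1.74 to 2.11). Definitive endoderm was on the other side of 1, with 327 CPM in TKO-labelled and 396 in WT-labelled cells, a ratio of 0.827 (0.738 to 0.930). Cardiomyocyte-gated cells were also below 1 for Id2, at 0.683 (0.499 to 0.955), while endothelial-gated cells stood at 2.23 (1.48 to 3.37), epiblast-gated cells at 2.07 (1.33 to 3.41) and unassigned cells at 1.62 (1.53 to 1.71). Id2 thus did not go with Id1 in every kind.

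Cells with UMIs of all 3 Id genes made up 47.3% of thinned TKO-labelled cells (45.5 to 49.1) and 23.7% of thinned WT-labelled cells (22.4 to 25.0). Cells with no UMI of any Id gene made up 4.26% of the TKO-labelled and 17.9% of the WT-labelled library. Cells with an Id UMI and no ligand UMI made up 63.6% of TKO-labelled cells (61.9 to 65.3) and 40.6% of WT-labelled cells (39.1 to 42.1). Erythroid-gated cells, which were low in Id genes, numbered 19 in the TKO-labelled and 521 in the WT-labelled library. Without them the whole-library ratios were 2.91 for Id1, 1.42 for Id2 and 2.26 for Id3.

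**Figure D3:**
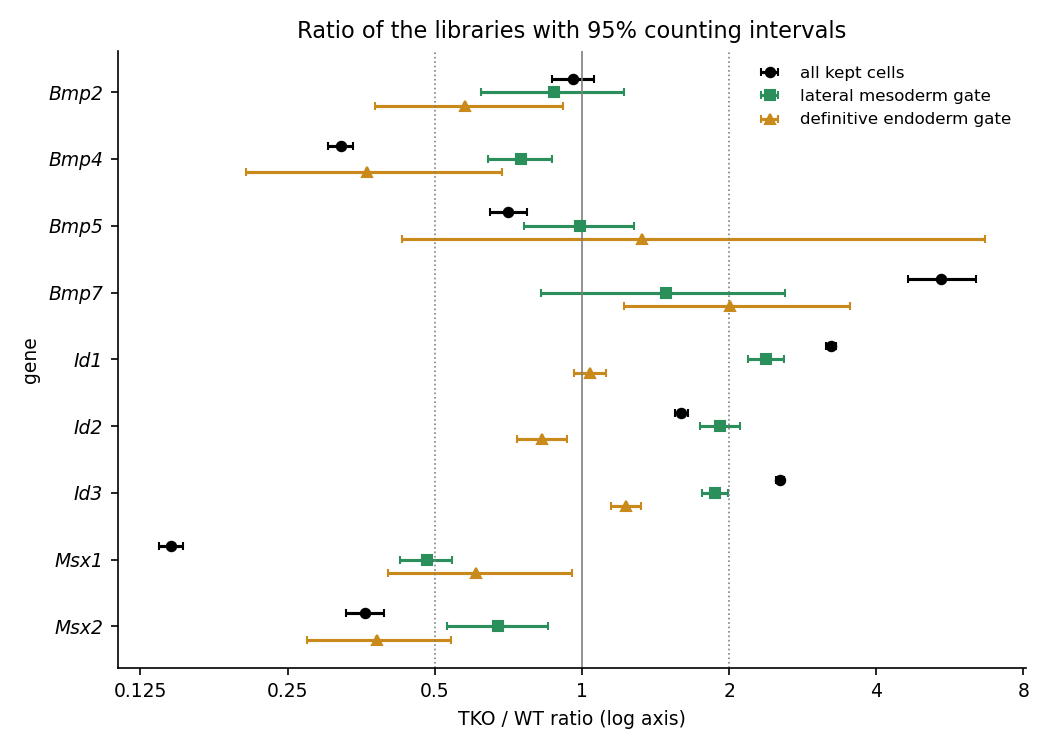
Ratio of the TKO-labelled over the WT-labelled library for each gene on a log axis, over all kept cells (circles), within lateral mesoderm-gated cells (squares) and within definitive endoderm-gated cells (triangles), with exact 95% counting intervals; dotted lines mark 2-fold. The Id ratios lie above 1 in lateral mesoderm, while in definitive endoderm Id1 is at 1.04 and Id2 at 0.827; Msx1 and Msx2 lie below 1 in all 3 sets.

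Msx1 and Msx2 stood lower in the TKO-labelled library, and lateral mesoderm was their highest pool in each library. The 250 bases before the starts of Msx1 (chr5:37824586-37824835, minus strand) and Msx2 (chr13:53472781-53473030, minus strand), with the same letters in capitals, are shown as targets that differ in the other direction from Id2 and Id3.
Msx1: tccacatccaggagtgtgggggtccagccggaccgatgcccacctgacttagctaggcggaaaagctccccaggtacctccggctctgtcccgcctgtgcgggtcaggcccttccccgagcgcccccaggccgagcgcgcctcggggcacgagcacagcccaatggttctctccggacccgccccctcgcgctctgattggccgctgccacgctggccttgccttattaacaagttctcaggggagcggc
Msx2: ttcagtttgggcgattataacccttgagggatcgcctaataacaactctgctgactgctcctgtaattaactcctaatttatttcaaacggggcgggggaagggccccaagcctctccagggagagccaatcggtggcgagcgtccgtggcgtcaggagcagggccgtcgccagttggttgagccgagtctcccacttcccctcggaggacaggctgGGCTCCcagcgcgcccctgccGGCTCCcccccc
Msx2 holds GGAGCC 2 times, and none of the 3 forms is in the Msx1 window, which says only that these letters are not there. The Msx1 window holds 20 and the Msx2 window 16 CpG dinucleotides.

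Msx1 (chr5:37820491-37824585), known from limb and face development, showed the lowest ratio of the 9 genes. Its level was 39.5 CPM (37.4 to 41.7) in the TKO-labelled library and 274 CPM (268 to 279) in the WT-labelled library, a ratio of 0.144 (0.136 to 0.153). Of thinned cells, 10.7% of TKO-labelled (9.60 to 11.8) and 54.0% of WT-labelled cells (52.5 to 55.6) had a UMI, and without thinning 17.7% of TKO-labelled and 67.2% of WT-labelled cells. Erythroid-gated WT-labelled cells had a share of 13.6% at 4000 UMIs.

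Lateral mesoderm was the one TKO-labelled pool of at least 50 gated cells with high Msx1. It had 189 CPM (169 to 211), and the other 5 TKO-labelled pools lay between 6.19 and 19.2. In the WT-labelled library Msx1 had 393 CPM in lateral mesoderm, 348 in matrix-rich mesenchyme and 320 in mesothelium, against 11.3 to 47.3 in the other 3 pools. Within lateral mesoderm the ratio was 0.481 (0.425 to 0.543), much nearer to 1 than over all cells. In that gate, 45.4% of thinned TKO-labelled cells (37.0 to 54.0) and 72.1% of thinned WT-labelled cells (67.7 to 76.1) had an Msx1 UMI. Matrix-rich mesenchyme-gated cells held 5513 of the 10263 Msx1 UMIs of the WT-labelled library. Of the 1324 Msx1 UMIs of the TKO-labelled library, unassigned cells held 674, at 55.4 CPM, and lateral mesoderm-gated cells 311. Streak mesoderm-gated cells, 16 in the TKO-labelled library, had 172 CPM on 29 UMIs. In definitive endoderm the ratio was 0.607 (0.402 to 0.953), from 19.2 CPM in TKO-labelled and 31.7 in WT-labelled cells, and the WT-labelled level did not exceed the 47.3 of erythroid-gated cells of that library. Endothelial-gated cells had little Msx1 in either library, with a ratio of 0.996 (0.314 to 2.76). Unassigned cells had a ratio of 0.192 (0.176 to 0.209), epiblast-gated cells 0.162 (0.083 to 0.331) and cardiomyocyte-gated cells 0.147 (0.063 to 0.362). The epiblast and cardiomyocyte gates held 26 and 19 WT-labelled cells. In erythroid-gated cells the interval of the Msx1 ratio, 0.123 to 1.18, spanned 1.

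Msx2 (chr13:53466881-53472780), which partly shares the functions of Msx1, had 18.8 CPM (17.4 to 20.3) in the TKO-labelled library and 52.3 CPM (49.999 to 54.7) in the WT-labelled library. The ratio was 0.360 (0.328 to 0.394). The thinned shares were 6.42% of TKO-labelled and 17.8% of WT-labelled cells, and unthinned 11.7% of TKO-labelled and 30.3% of WT-labelled cells, beside 3.61% of erythroid-gated WT-labelled cells. Lateral mesoderm had 54.1 CPM in TKO-labelled and 80.2 in WT-labelled cells, a ratio of 0.675 (0.528 to 0.854). In definitive endoderm Msx2 had 20.4 CPM in TKO-labelled and 53.6 in WT-labelled cells, a ratio of 0.381 (0.274 to 0.540), beside 10.7 in erythroid-gated WT-labelled cells. Visceral endoderm-gated cells of the WT-labelled library had a like level, 51.7 CPM on 20 UMIs. The Msx2 ratio was 0.3415 (0.295 to 0.395) in unassigned cells. It was 0.071 (0.029 to 0.177) in epiblast-gated cells, on 11 TKO-labelled and 12 WT-labelled UMIs. In endothelial-gated, cardiomyocyte-gated and erythroid-gated cells the intervals of the Msx2 ratio spanned 1.

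Cells with either Msx gene made up 14.7% of thinned TKO-labelled cells (13.4 to 16.0) and 60.0% of thinned WT-labelled cells (58.4 to 61.5). Cells with an Id UMI and no Msx UMI made up 81.2% of TKO-labelled cells (79.8 to 82.6) and 28.6% of WT-labelled cells (27.2 to 30.1).

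Within the lateral mesoderm gate, 1 of the 9 genes (Id1) was at least 2-fold higher in TKO-labelled cells, beside 7.49% of 10996 genes, and 1 (Msx1) at least 2-fold lower, beside 9.19%. The gate did not hold like cells in the libraries. Of its own markers, Hand1 had 422 CPM in TKO-labelled and 900 in WT-labelled cells, and Pitx1 had 12.2 in TKO-labelled and 159 in WT-labelled cells. Foxf1 was higher, with 178 CPM in TKO-labelled and 88.3 in WT-labelled cells. At the minimum of 4 markers stood 92 of 142 TKO-labelled and 150 of 477 WT-labelled cells. The part of this difference in the gene ratios was not tested, except that a gate without Hand1 gave 2.32 for Id1 and 0.474 for Msx1. Within definitive endoderm, 1 of the 9 genes (Bmp7) was at least 2-fold higher, beside 12.9% of 12084 genes and in none of the 4 other ways of drawing that gate, and 2 (Bmp4 and Msx2) at least 2-fold lower, beside 9.49%. Its markers differed too, as Trh had 1565 CPM in TKO-labelled and 151 in WT-labelled cells and Hhex had 82.2 in TKO-labelled and 145 in WT-labelled cells.

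The rest of the pathway was described with a list of 68 genes. Of the 59 with at least 10 UMIs, 13 were at least 2-fold higher in the TKO-labelled library and 10 at least 2-fold lower, beside the 13.5% and 12.3% of all genes given above. The balance turned with the scaling and the cells used, to 11 higher and 14 lower under median-of-ratios scaling and 11 higher and 15 lower without erythroid-gated cells. The list's median log2 ratio was 0.12, close to that of all genes. Of 16 extracellular antagonists and modulators 5 were higher and 4 lower, and of 11 receptors and co-receptors 3 were higher and 3 lower. Of 12 other target genes 4 were higher and 1 lower, and of 6 other ligands 1 was higher and 1 lower. Of the 6 Smads 1 was lower and none higher, and none of the 8 intracellular modulators was past 2-fold. Of the 13 higher genes, 6 had fewer than 50 UMIs in all.

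The widely used receptor chains and signal carriers were within 2-fold. The type I receptor gene Bmpr1a had 41.8 CPM in the TKO-labelled and 30.7 in the WT-labelled library, a ratio of 1.36 (1.26 to 1.47), and the type II receptor gene Bmpr2 had a ratio of 0.832 (0.752 to 0.920). The signal carriers Smad1 and Smad5 had ratios of 1.33 (1.22 to 1.46) and 1.18 (1.07 to 1.30). The inhibitory Smad genes, themselves BMP targets, stood on the other side of 1 from the Id genes over all cells, Smad6 at 0.513 (0.464 to 0.567) and Smad7 at 0.804 (0.763 to 0.848). Within lateral mesoderm they did not, as Smad6 had a ratio of 1.20 (0.900 to 1.59) and Smad7 one of 1.12 (0.949 to 1.31), with intervals that span 1. Within definitive endoderm both were lower, Smad6 at 0.502 (0.324 to 0.808) and Smad7 at 0.574 (0.461 to 0.721). Bambi, a decoy receptor and target, stood at 0.554 (0.534 to 0.575) over all cells. It was lower within both gates too, at 0.425 (0.364 to 0.495) in lateral mesoderm and 0.483 (0.426 to 0.548) in definitive endoderm.

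The receptor genes past 2-fold and lower in the TKO-labelled library were Acvrl1, Eng and Tgfbr3. Acvrl1, a type I receptor of endothelium, had 0.627 CPM in the TKO-labelled and 3.09 in the WT-labelled library, a ratio of 0.203 (0.121 to 0.325). Its co-receptor Eng had a ratio of 0.340 (0.265 to 0.433), and the co-receptor Tgfbr3 one of 0.299 (0.269 to 0.332). Endothelial-gated cells numbered 38 in the TKO-labelled and 147 in the WT-labelled library, and their part in these ratios was not tested. Within lateral mesoderm Tgfbr3 had a ratio of 0.397 (0.254 to 0.597), and within definitive endoderm one of 1.11 (0.659 to 2.02). The lateral mesoderm intervals of Acvrl1, 0.0365 to 1.39, and Eng, 0.176 to 1.61, spanned 1. Smad9, the remaining signal carrier, had 5 UMIs in the TKO-labelled and 73 in the WT-labelled library, a ratio of 0.077 (0.024 to 0.187).

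Secreted factors differed in both directions. The ligand gene Gdf6 had 0.329 CPM in the TKO-labelled and 4.56 in the WT-labelled library, a ratio of 0.072 (0.035 to 0.132). Follistatin (Fst) at 0.340 (0.287 to 0.401), Fstl3 at 0.166 (0.068 to 0.351) and Kcp at 0.393 (0.287 to 0.532) were also lower. Within lateral mesoderm the Gdf6 ratio was 0.951 (0.221 to 3.21), on 4 TKO-labelled and 11 WT-labelled UMIs, while that of Fst was 0.316 (0.122 to 0.693). The antagonist Cer1 had 6.99 CPM in the TKO-labelled and 0.480 in the WT-labelled library, a ratio of 14.6 (9.01 to 25.0), and it is also a marker of the definitive endoderm gate. Inside that gate Cer1 had 16.9 CPM in TKO-labelled and 20.7 in WT-labelled cells, a ratio of 0.818 (0.496 to 1.44). Bmper, a modulator of BMP activity, was higher over all cells with a ratio of 6.76 (4.60 to 10.2), and Chrd, which encodes the antagonist chordin, with 2.47 (1.71 to 3.64). Within the gates Bmper rested on few UMIs and went both ways, with a ratio of 9.15 (1.74 to 90.3) in lateral mesoderm and 0.277 (0.0980 to 0.959) in definitive endoderm. The BMP co-receptor genes Rgma and Rgmb had ratios of 7.21 (5.97 to 8.78) and 2.14 (1.78 to 2.58). Rgma was higher within both gates, with a ratio of 2.51 (1.37 to 4.58) in lateral mesoderm and 2.25 (1.24 to 4.55) in definitive endoderm. Rgmb was not clear of 1 in either, at 0.832 (0.300 to 2.02) in lateral mesoderm and 2.85 (0.948 to 14.03) in definitive endoderm.

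Among other target genes, Hand1, a heart and extraembryonic mesoderm factor, had 45.9 CPM in the TKO-labelled and 633 in the WT-labelled library, a ratio of 0.073 (0.069 to 0.076). It is a marker of the lateral mesoderm gate. Gata3 was higher with a ratio of 2.07 (1.87 to 2.29), and Tfap2a, a factor of ectoderm and neural crest, with 3.56 (2.03 to 6.55). Id4, the fourth Id gene, had 6.90 CPM in the TKO-labelled and 4.91 in the WT-labelled library, a ratio of 1.41 (1.15 to 1.72).

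**Figure D4:**
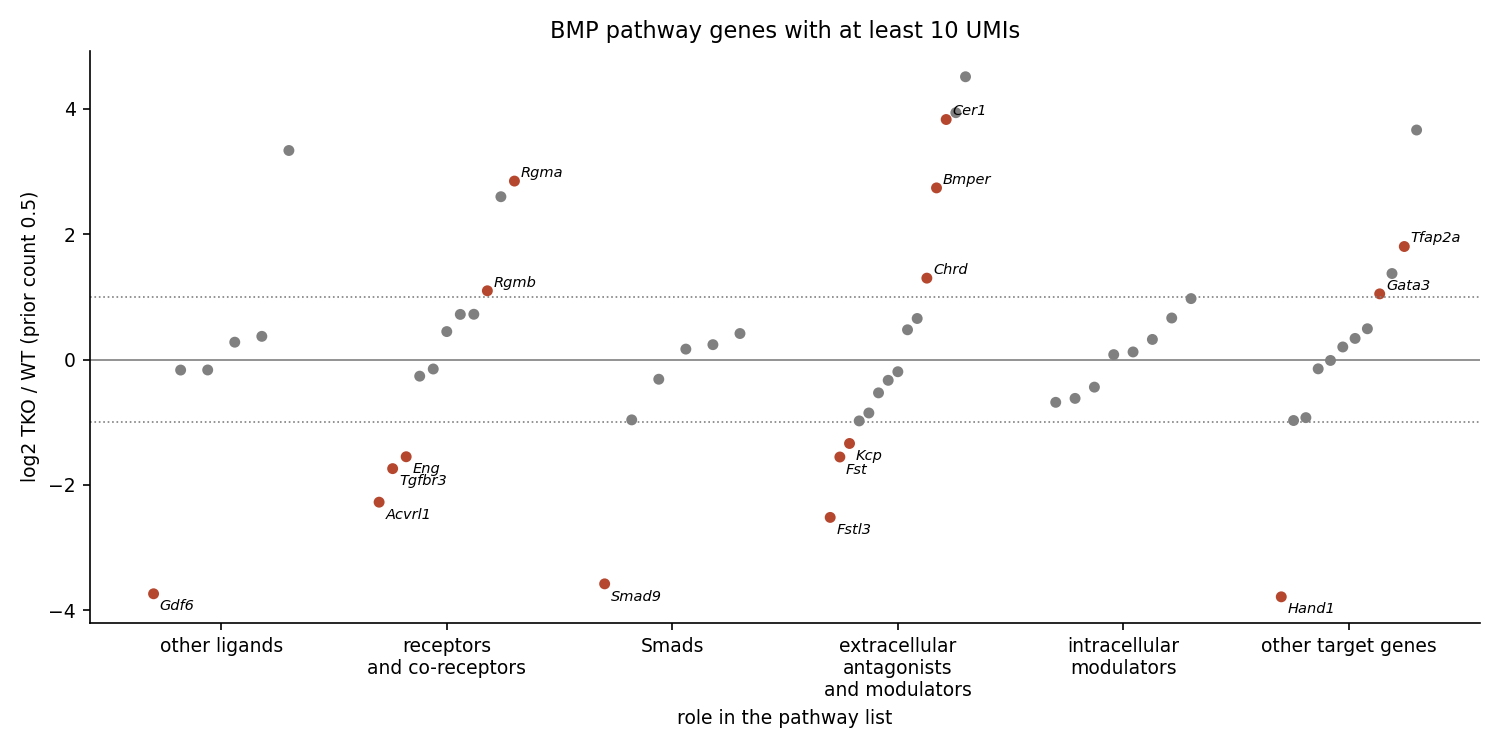
Log2 ratio of the TKO-labelled over the WT-labelled library, with a prior count of 0.5, for 58 of the 59 genes of the pathway list with at least 10 UMIs, grouped by role; each point is a gene and dotted lines mark 2-fold. Red points with names are 16 genes past 2-fold with at least 50 UMIs, and the intracellular modulators have none past 2-fold.

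Whether a cell with a ligand UMI also had target UMIs was compared for 20 ligand-target pairs per library at 4000 UMIs per cell. The target share was larger in cells with the ligand, with intervals that did not overlap, for 3 pairs in the TKO-labelled and 12 in the WT-labelled library, and smaller for 0 in either. Msx1 was found in 21.5% of the 390 TKO-labelled cells with Bmp4 (17.6 to 26.0) and in 9.06% of the 2616 without (7.99 to 10.2). In the WT-labelled library it was found in 64.2% of the 1406 cells with Bmp4 (61.6 to 66.7) and in 48.6% of the 2611 without (46.6 to 50.5). Id1 showed no such gap in the TKO-labelled library, with 81.8% of cells with Bmp4 (77.6 to 85.5) and 80.5% of cells without (78.9 to 82.0). In the WT-labelled library Id1 was found in 51.1% of cells with Bmp4 (48.4 to 53.7) and 45.2% of those without (43.3 to 47.2). These shares were 37.5% and 36.5% at 2500 UMIs, with overlapping intervals, and 61.4% and 53.1% at 6000. The widest gap of the WT-labelled library at 4000 UMIs was that of Id1 with Bmp7. There Id1 was found in 67.5% of 77 cells with Bmp7 (55.9 to 77.8) and 46.9% of 3940 without (45.3 to 48.5). In the TKO-labelled library the shares with and without Bmp7 were 82.4% and 80.5%.

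Inside single kinds the intervals mostly overlapped, which does not show that a gap was absent where few cells had the ligand. Of 85 pairs in kinds other than erythroid, 84 had overlapping intervals, 0 were larger and 1 was smaller. That pair was Id3 in definitive endoderm-gated TKO-labelled cells, with 83.3% of the 48 cells with Bmp2 (69.8 to 92.5) and 95.1% of the 791 without (93.3 to 96.5). In matrix-rich mesenchyme-gated WT-labelled cells, Msx1 was found in 65.2% of 735 cells with Bmp4 (61.6 to 68.6) and 67.9% of 1001 without (64.9 to 70.8). In lateral mesoderm-gated WT-labelled cells the shares were 74.5% of 204 with Bmp4 (68.0 to 80.3) and 70.1% of 254 without (64.0 to 75.6). In the TKO-labelled library the Msx1 shares went both ways on few cells, with wide intervals. In lateral mesoderm-gated cells they were 50% of 50 with Bmp4 (35.5 to 64.5) and 42.9% of 91 without (32.5 to 53.7). In definitive endoderm-gated cells they were 13.6% of 22 with Bmp4 (2.91 to 34.9) and 5.39% of 817 without (3.94 to 7.16). Cardiomyocyte-gated cells went the other way, with 2.63% of 38 with Bmp4 (0.0666 to 13.8) and 4.17% of 120 without (1.37 to 9.46). Erythroid-gated WT-labelled cells were the kind set apart, where 4 of 5 targets were seen more often with Bmp4. There Msx1 was found in 45.8% of 24 cells with Bmp4 (25.6 to 67.2) and 11.9% of 447 without (9.01 to 15.2). Those 24 cells had UMIs of a median of 3 matrix-rich mesenchyme markers, against 1 in the 447, and 45.8% of them against 8.28% had at least 4. The part of doublets or free RNA in this gap was not tested.

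**Figure D5:**
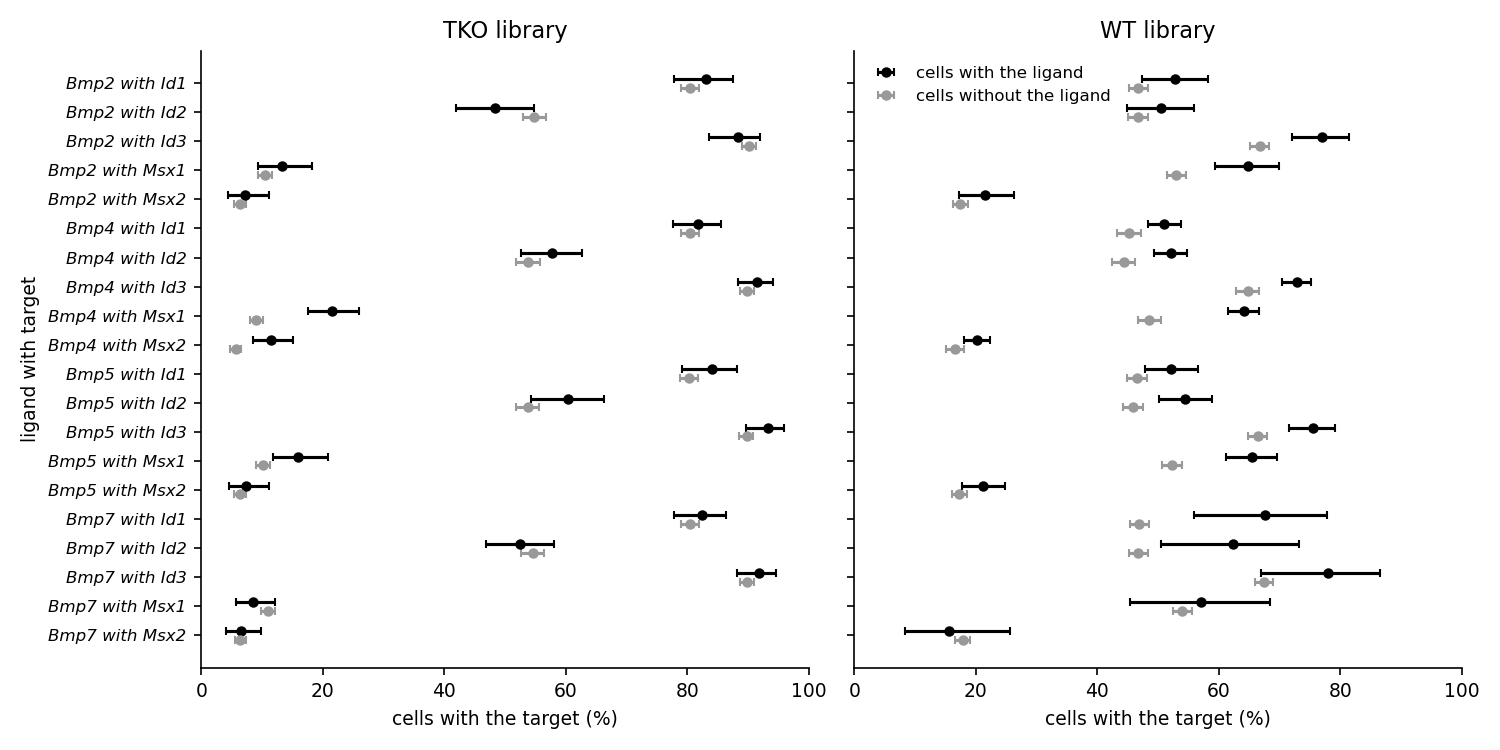
Percentage of cells with a target UMI among cells with (black) and without (grey) a UMI of the ligand, at 4000 UMIs per cell, with exact binomial 95% intervals; left the TKO-labelled and right the WT-labelled library. For Bmp4 and Msx1 the intervals do not overlap in either library, at 21.5% with and 9.06% without the ligand in the TKO-labelled library. In the WT-labelled library that pair is at 64.2% and 48.6%, and Bmp7 with Id1 has the widest gap, 67.5% and 46.9%.

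Across the 12 pools, some of the genes ran together in their levels on a log2(CPM + 1) scale. These values are descriptions over pools that share 2 libraries. Id1 and Id3 ran together (Pearson r = 0.97), as did Msx1 and Msx2 (0.88) and Bmp4 and Bmp5 (0.81). Bmp4 ran with Msx1, at 0.77 over all pools, 0.50 over the 6 TKO-labelled and 0.98 over the 6 WT-labelled pools. It was not alone in this, as Bmp5 with Msx1 and Bmp2 with Msx2 both stood at 0.99 over the WT-labelled pools. Over the TKO-labelled pools these 2 pairs stood at 0.28 and 0.27. Bmp4 and Id1 did not run together, at -0.20 over all pools, -0.08 over the TKO-labelled and -0.01 over the WT-labelled pools. Bmp7 ran with Id1, at 0.91 over all pools, 0.87 over the TKO-labelled and 0.84 over the WT-labelled pools. Over all pools it also ran with Id3 (0.83) and Id2 (0.82). Among 9793 genes compared, the most like Bmp4 was Twist2 (0.97), the most like Bmp7 was Fzd7 (0.98), and the most like Id1 was Tspan7 (0.97). Next to Bmp4 came Colec11 and Runx1t1 (both 0.96), next to Bmp7 Il17rd (0.96) and Nae1 (0.95), and next to Id1 Foxp4 and Id3 (both 0.97). The 3 genes most like Msx1 were Ackr3, Fgfr3 (both 0.95) and Hoxc8 (0.94), and those most like Msx2 were Cobll1 (0.93), Spin2c (0.89) and Msx1. Those most like Id2 were Lzts2 (0.97), Ankrd12 and Zfp386 (both 0.96), and those most like Id3 were Id1, Ttc23 (0.97) and Zc3h7b (0.95). Bmp2 was most like Trpc4ap (0.93), Dctn6 (0.92) and Pnpla8 (0.90), and Bmp5 most like Smarcd3 (0.96), Galnt10 and Igsf3 (both 0.95).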

How the data were processed

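Single-cell RNA libraries of day 5 were analysed, 1 TKO-labelled and 1 WT-labelled. The values are raw counts as the authors deposited them, whole numbers per gene and cell that were read here as UMIs. The submitters' processing notes name Seurat 3 and mm10, without their role. The sources used here name no aligner or counting tool. The TKO-labelled header named 3224 barcodes for 3223 values per row, so cells were read by position, and 116 row names that differed in their ending were matched by position.

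Cells with over 15% mitochondrial UMIs were removed (26 TKO-labelled, 3 WT-labelled), and doublets were marked with Scrublet in scanpy 1.11.5. No cell fell below the minimum of 500 genes or 1000 UMIs. A cell took the kind with most of its 10 markers, at least 4, and ties stayed unassigned. Summed counts gave CPM with exact Poisson intervals, ratios with exact binomial intervals and shares with Clopper-Pearson intervals (scipy). Genes needed 10 UMIs over both libraries to enter background counts, with a prior count of 0.5. Thinning to 4000 UMIs left out 190 TKO-labelled and 372 WT-labelled cells. Ratios and thinning were tested on simulated data. Likeness is Pearson's r across pools.

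The members and lists were chosen with earlier results of these data known. The genes named were the 9 members, pathway-list genes (those at least 2-fold apart with at least 50 UMIs, others as chosen), the 3 genes most like each member and gate markers. The pathway list was described by its counts, with no test, and 1 gene of it is counted but not reported here by name.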

Additional observations from a re-analysis of the deposited data

Results flagged for a closer look

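The Id2 ratio of the TKO-labelled over the WT-labelled library stood on opposite sides of 1 in the 2 kinds with at least 50 cells in both libraries. It was 1.92 in lateral mesoderm-gated cells and 0.827 in definitive endoderm-gated cells. With 1 library per group the difference between the kinds was not tested.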

How the results depend on the processing

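No paired analysis was possible because each group compared has 1 library. Over all cells the 9 ratios kept their direction under the alternative scalings and cell sets, and none moved by over 1.5 times. In 36 of 54 cases the ratio stayed inside its counting interval. Median-of-ratios scaling moved every log2 ratio by -0.14. Without erythroid-gated cells the ratio was 0.284 for Bmp4, 4.76 for Bmp7 and 0.128 for Msx1.

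The pathway list had 7 higher genes at a minimum of 50 UMIs, against 13 at 10, and 17 lower genes at a threshold of 1.5-fold, against 10 at 2-fold. Counts within kinds rested on genes near 2-fold. In lateral mesoderm, 0 genes were lower at a gate of 5 markers, and 2 were higher when cells passing more than 1 gate were left out. With the lateral mesoderm and matrix-rich mesenchyme gates joined, an alternative chosen after seeing the data like the gate without Hand1, 4 were higher and 0 lower. The Bmp7 ratio was then 3.21 and that of Bmp2 1.18, against 0.561 for Bmp2 at a gate of 5 markers. In definitive endoderm, Bmp7 fell below 2-fold and 0 genes were higher at gates of 3 and 5 markers, without cells passing more than 1 gate and with the gate on thinned counts, where 4 were lower. The thinned gate left too few lateral mesoderm cells for a value. Thinning to 2500 or 6000 UMIs kept 4 genes in a larger and 4 in a smaller share of TKO-labelled cells. The 12 pairs of the WT-labelled library were 8 at 2500 and 16 at 6000 UMIs. Of the 27 genes named for likeness, 10 were also among the first 3 by Spearman's rho.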
